A study of Mus musculus with 9 samples.

Results

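Mouse natural killer (NK) cells that had received TGF-β1 for 3 h were compared with untreated NK cells across all genes of the transcriptome. The comparison takes up 6 of the 9 libraries of the series, 3 without treatment (Ctrl) and 3 with TGF-β1 at 5 ng/mL (TGFb). The cells were grown from C57BL/6 bone marrow in 2 stages. The first lasted 4 days and used 1 ng/mL of IL-7, 10 ng/mL of Flt3L, 30 ng/mL of SCF and 50 ng/mL of IL-15. The second lasted a week with 50 ng/mL of IL-15 plus 20 ng/mL of IL-2, which both groups received. The remaining 3 libraries, from cells given the inhibitor SIS3 at 10 µM ahead of TGF-β1, were used only to estimate the spread between libraries. The table holds 16876 genes, and 12212 of these had enough counts to be tested. No label says whether replicates are separate mice or cultures, so each p-value reflects only how far these libraries spread.

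TGF-β is secreted as a latent complex and acts, once released, on a pair of serine/threonine kinase receptors, TGFBR1 and TGFBR2. The activated type I receptor phosphorylates SMAD2 and SMAD3, which join SMAD4, enter the nucleus and bind DNA together with other factors. Among the first genes they switch on are inhibitors of the pathway itself, such as SMAD7, SKI and SKIL. In NK cells TGF-β is known to restrain cytotoxicity, interferon-γ production and growth driven by IL-15.

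SMAD3 and SMAD4 bind the box GTCT, and the palindrome GTCTAGAC holds that box on both strands. Sequences that hold it are shown because the genes beside it did not all move the same way. RefSeq promoter windows for GRCm38.p6 ran from 250 bases before to 50 after a gene's start. They were matched by Entrez gene number to 9816 of the genes tested. The palindrome was found in at least 1 window of 27 of them, or 0.275% of these genes. Counted by single windows, it was in 0.213% of all windows in the RefSeq table. A gene can have several windows, so these shares are unlike measures. The test called 8 of these 27 genes risen and 4 fallen, and 15 did not pass, with a median log2 change of 0.05. Over all genes tested, 17.9% rose and 16.4% fell. The 4 examples were chosen after their values were seen, and capitals mark the palindrome in each stretch, written 5′ to 3′ on the strand of the gene.
Runx3 (chr4:135152310-135152437, plus strand, inside the gene's RefSeq span, site 175 bases before the start): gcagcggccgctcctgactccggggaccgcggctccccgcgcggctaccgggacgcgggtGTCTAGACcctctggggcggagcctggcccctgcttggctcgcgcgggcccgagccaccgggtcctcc
C9orf72 (chr4:35226003-35226086, minus strand, inside the gene's span, site 234 bases before the start): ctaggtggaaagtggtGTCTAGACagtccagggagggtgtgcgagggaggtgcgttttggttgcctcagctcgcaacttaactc
Rmnd5b (chr11:51636076-51636146, minus strand, upstream of the gene, site 247 bases before the start): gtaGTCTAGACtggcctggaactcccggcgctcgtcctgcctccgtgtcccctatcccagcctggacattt
Ltb4r1 (chr14:55765712-55765787, plus strand, upstream of the gene, site 242 bases before the start): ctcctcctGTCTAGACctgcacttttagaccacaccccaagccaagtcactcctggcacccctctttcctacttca

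Values below are CPM, the counts of a gene scaled to the size of its library with TMM factors. Each change is a log2 ratio of TGFb over Ctrl ± SE with a Benjamini-Hochberg adjusted p from edgeR's quasi-likelihood test. Runx3, a transcription factor of cytotoxic lymphocytes, lay at 253, 223 and 235 CPM in Ctrl and 428, 417 and 433 CPM in TGFb (log2 change 0.84 ± 0.047, adjusted p = 8.9e-10). C9orf72, which takes part in autophagy and vesicle traffic, lay at 9.15, 10.6 and 10.3 CPM in Ctrl and 33.6, 35.02 and 34.3 CPM in TGFb (log2 change 1.77 ± 0.067, adjusted p = 7.8e-12). Rmnd5b, a subunit of a ubiquitin ligase, lay at 73.6, 71.4 and 66.4 CPM in Ctrl and 138, 137 and 153 CPM in TGFb (log2 change 1.02 ± 0.052, adjusted p = 2.7e-10). The libraries of these 3 genes were all higher in TGFb, with no overlap. Ltb4r1, a receptor for the chemoattractant leukotriene B4, was lower in every TGFb library, at 75.4, 76.7 and 77.04 CPM in Ctrl and 45.6, 48.8 and 45.5 CPM in TGFb (log2 change -0.71 ± 0.046, adjusted p = 5.4e-09). A match to these letters is a description of the window and does not show that a SMAD binds there.

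Library totals ran from 15714973 to 16639359 expected counts. Ctrl libraries lay at -26.1 to -25.0 on the first principal component of the 6 libraries (63.0% of the variance) and TGFb libraries at 22.5 to 31.1. TGFb replicate 3 stood apart on the second component (15.9%), at 23.8, where replicates 1 and 2 lay at -14.5 and -13.5. Its median absolute log2 difference from each of them was 0.110 and 0.107, against 0.0834 between those 2 libraries. NK cell markers made up 21853 to 23018 CPM in Ctrl and 17051 to 18555 CPM in TGFb, and 9 of the 14 fell, among them Ncr1, Gzmb and Prf1. Most of that sum and of its drop came from Gzmb (8032 to 8689 against 5376 to 5972 CPM) and Prf1 (6110 to 6423 against 4596 to 5310 CPM). Macrophage and monocyte markers summed to 1645 to 1945 CPM in Ctrl and 1034 to 1346 CPM in TGFb. Of these 12 markers 4 fell, Mrc1, Ccr2 and Fcgr1 among them. Ccr2 alone lay at 522 to 544 CPM in Ctrl and 170 to 203 CPM in TGFb. Without Ccr2 the sums were 1123 to 1411 CPM and 849 to 1176 CPM, and the groups overlapped. Sums for the other cell types were as follows in Ctrl against TGFb: dendritic cell 556 to 791 against 444 to 717 CPM, mast cell and basophil 614 to 638 against 575 to 642 CPM, neutrophil 258 to 298 against 234 to 248 CPM, T cell 15.8 to 17.2 against 8.05 to 22.4 CPM, B cell 0.913 to 1.26 against 0.799 to 1.79 CPM, and stromal 1081 to 1112 against 1313 to 1378 CPM. The stromal sum was almost wholly Pecam1, and the other 6 markers each stayed under 2 CPM. Erythroid and megakaryocyte markers summed to 37.3 to 47.9 CPM in Ctrl and to 7.66 to 38.7 CPM in TGFb, lowest in replicate 3. That library also held the lowest TGFb sums for macrophage, dendritic, T and B cell markers and the highest for NK cell markers, and the part of this in the results was not tested. No marker present in the table was at 0 in all 6 libraries. In bulk RNA, fewer cells of a type and less RNA per cell cannot be told apart.

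After 3 h of TGF-β1, 4190 of the 12212 genes tested, or 34.3%, had changed at an adjusted p below 0.05. Of these, 2186 rose (17.9%) and 2004 fell (16.4%). Most changes were small. In the band under 0.25 on the log2 scale 606 genes rose and 714 fell, and from 0.25 to 0.5 the counts were 688 and 773. Between 0.5 and 1 they were 529 and 387, and from 1 to 2 they were 254 and 121. From 2 to 3, 70 genes rose and 8 fell, and 39 rose by 3 or more, against 1 that fell by as much. Changes of at least 1 on the log2 scale thus comprised 363 rises (2.97% of the genes tested) and 130 falls (1.06%). The 1 fall beyond 3 was Moap1, a regulator of apoptosis, named after its value was seen. It stood at 1.64, 0 and 1.16 CPM in Ctrl, where replicate 2 held no count, and no count in any TGFb library, and it did not pass with limma or without Ctrl replicate 1. Groups did not overlap for 5495 genes, or 45% of those tested.

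**Figure D1:**
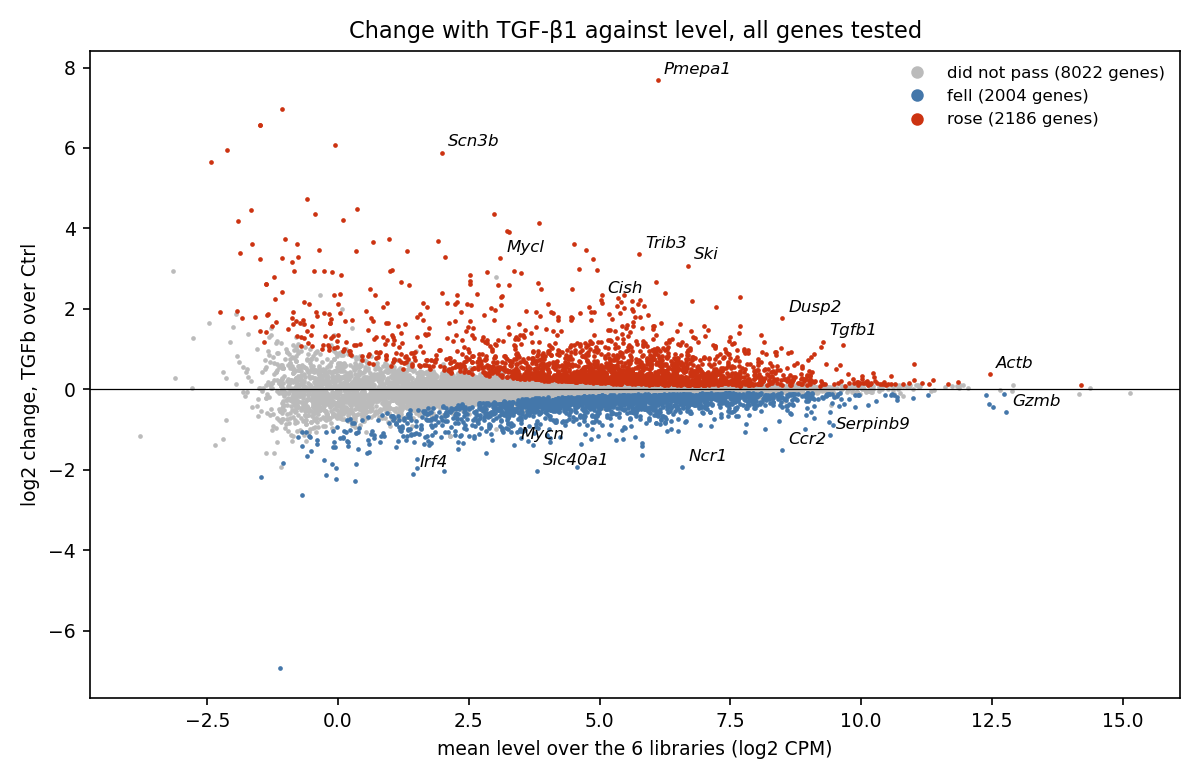
Each point is 1 of the 12212 genes tested, with the log2 change of TGFb over Ctrl on the vertical axis and the mean log2 CPM over the 6 libraries on the horizontal axis. The 2186 genes that rose are red, the 2004 that fell blue and the other 8022 grey. Of the genes that passed, 39 lie above 3 and 1 lies below -3.

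Calls grew more frequent with expression level. Split into 5 bins of equal size by mean level, the bin with a median of 1.57 CPM had 8.76% of genes risen and 6.59% fallen. The bin with a median of 147 CPM had 26.6% risen and 23.4% fallen. From the lowest bin to the highest, rises of at least 1 numbered 139, 72, 48, 64 and 40, and falls of that size numbered 78, 29, 9, 9 and 5. Genes that rose made up 21.5% of all CPM in Ctrl and 26.9% in TGFb, and genes that fell 22.5% and 18.1%. Each gene list below stands beside 17.9% of all genes that rose and 16.4% that fell. No list was matched to all genes by expression level.

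Most genes of the feedback arm of the pathway rose. Of 18 inhibitors and modulators of SMAD signalling tested, 11 rose, 2 fell and 5 did not pass, beside 17.9% of all genes that rose. The median log2 change was 0.24, against -0.004 over all genes tested. Among the rises, Smurf1 and Tob1 passed only narrowly (log2 changes 0.18 and 0.3, adjusted p = 0.049 and 0.048). Pmepa1, which keeps receptor-activated SMADs from the receptor, was nearly silent before treatment and lay at 0.76, 0.8 and 0.43 CPM in Ctrl and 143, 137 and 133 CPM in TGFb (log2 change 7.69 ± 0.1, adjusted p = 9e-17). Ski (chr4:155154075-155222535), a corepressor that binds SMAD complexes, lay at 19.7, 21.8 and 24.2 CPM in Ctrl and 187, 183 and 183 CPM in TGFb (log2 change 3.07 ± 0.054, adjusted p = 1.3e-15). Skil, its relative, lay at 74.3, 74.1 and 73.3 CPM against 190.2, 184 and 181 CPM (log2 change 1.33 ± 0.048, adjusted p = 4.3e-12). Ldlrad4, a membrane protein that also blocks access of SMADs to the receptor, lay at 4.86, 5.67 and 5.9 CPM against 43.8, 42.2 and 43.9 CPM (log2 change 2.98 ± 0.075, adjusted p = 9.5e-14). Every TGFb library exceeded every Ctrl library for these 4 genes. Smad7, the inhibitory SMAD that recruits ubiquitin ligases to the receptor, lay at 8.2, 6.96 and 5.96 CPM against 24.7, 28 and 27.4 CPM (log2 change 1.92 ± 0.1, adjusted p = 4.7e-10). Tgif1, a homeodomain corepressor, rose at 47.6, 49.1 and 48.6 CPM against 99.9, 96.9 and 84.01 CPM (log2 change 0.95 ± 0.056, adjusted p = 1.6e-09). Wwp1, a ubiquitin ligase of the same circuit, went the other way, at 65.98, 63.9 and 63.5 CPM against 53.6, 56.9 and 52.7 CPM (log2 change -0.24 ± 0.045, adjusted p = 0.00045). Strap, which stabilises SMAD7 at the receptor, also fell (log2 change -0.16 ± 0.048, adjusted p = 0.017), and it did not pass without Ctrl replicate 2 or 3 among other settings.

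The 3 TGF-β ligands rose, as did 2 genes for proteins that mature or release them. Among 23 ligands, receptors and activators tested of 32 listed, 10 rose, 2 fell and 11 did not pass. Tgfb1 itself lay at 387, 382 and 356 CPM in Ctrl and 876, 824 and 862 CPM in TGFb (log2 change 1.19 ± 0.04, adjusted p = 1.9e-12), an increase in the transcript of the cytokine that had been added. Tgfb3 lay at 0.57, 0.74 and 0.3 CPM against 7.76, 6.53 and 6.59 CPM (log2 change 3.68 ± 0.22, adjusted p = 2.3e-09). Tgfb2 lay at 0.69, 0.68 and 0.85 CPM against 1.79, 2.32 and 3.26 CPM (log2 change 1.71 ± 0.29, adjusted p = 0.00025). Furin, the protease that cleaves the TGF-β precursor, lay at 246, 225 and 233 CPM against 322, 333 and 351 CPM (log2 change 0.52 ± 0.041, adjusted p = 6.6e-08). Itgav, the integrin chain that takes part in releasing latent TGF-β, lay at 471, 435 and 458 CPM against 581, 598 and 650.2 CPM (log2 change 0.42 ± 0.05, adjusted p = 5.4e-06). Nrros, which tethers latent TGF-β1 to the surface of myeloid cells, fell from 76.9 ± 1.09 to 56.05 ± 2.01 CPM (SD, n = 3; log2 change -0.46 ± 0.045, adjusted p = 7.5e-07). All 6 of these genes had separate groups.

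Receptors and SMADs changed unevenly. Acvr1b, the activin type I receptor, lay at 6.12, 8.44 and 6.82 CPM in Ctrl and 18.7, 20.7 and 16.7 CPM in TGFb (log2 change 1.39 ± 0.12, adjusted p = 1e-07). Acvr1, a type I receptor for BMPs and activins, lay at 11.04, 10.2 and 11.8 CPM against 18.7, 18.7 and 20.6 CPM (log2 change 0.81 ± 0.08, adjusted p = 8.3e-07). Tgfbr1, the type I receptor for TGF-β, rose from 37.2 ± 2.27 to 44.9 ± 1.39 CPM (SD, n = 3; log2 change 0.27 ± 0.056, adjusted p = 0.0013). Tgfbr2 did not pass, at 473, 435 and 439 CPM against 449, 426 and 444 CPM (log2 change -0.03 ± 0.044, adjusted p = 0.65). Of 5 SMADs tested that carry or share the signal, 1 rose and 4 did not pass. The one that rose was Smad3, at 5.24, 4.25 and 3.41 CPM against 9.67, 9.21 and 10.4 CPM (log2 change 1.18 ± 0.15, adjusted p = 1.7e-05). Smad2 lay at 48.5, 49.2 and 48.99 CPM against 45.4, 44.8 and 44 CPM and just missed the threshold (log2 change -0.13 ± 0.049, adjusted p = 0.055), which it passed on the falling side with DESeq2 size factors, upper-quartile factors or no scaling. Smad4 lay at 41.8, 38.9 and 38.8 CPM against 38.8, 37.9 and 38.6 CPM (log2 change -0.05 ± 0.051, adjusted p = 0.5).

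**Figure D2:**
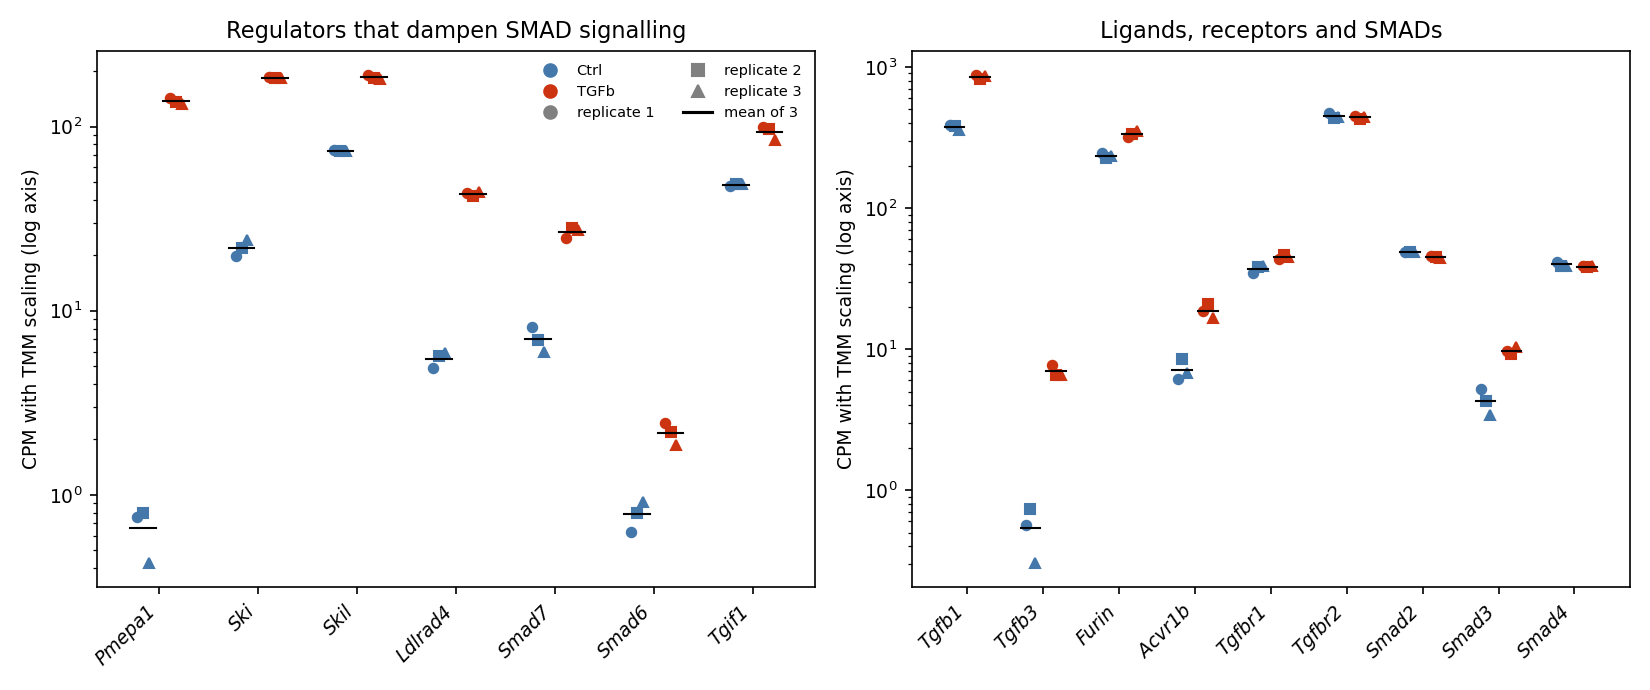
The panels set genes of the TGF-β pathway side by side, with CPM per library on a log vertical axis, 1 point per library (blue Ctrl, red TGFb, shapes for replicates 1 to 3) and a bar at each group mean. The inhibitors Pmepa1, Ski, Skil, Ldlrad4 and Smad7 lie higher in every TGFb library, while the groups overlap for Tgfbr2.

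Of 20 widely described SMAD target genes tested, 10 rose, 2 fell and 8 did not pass, with a median of 0.12. Tgfbi, a matrix protein, lay at 20.2, 28.9 and 26.4 CPM against 71.5, 93.3 and 60.3 CPM (log2 change 1.58 ± 0.16, adjusted p = 1.1e-06). Rgs16, which shortens signalling by G-protein-coupled receptors, lay at 526, 519 and 486 CPM against 1049, 1049.8 and 1189 CPM (log2 change 1.1 ± 0.051, adjusted p = 8.9e-11). Thbs1, a matrix protein able to activate latent TGF-β, lay at 36.6, 38.5 and 19.5 CPM against 55.8, 72.5 and 88.6 CPM (log2 change 1.2 ± 0.18, adjusted p = 7.6e-05). For Tgfbi and Itgae the TGFb replicate 3 value was the lowest of its group, and without that library their changes were 1.71 and 1.62. Targets of the BMP branch, Id1 (log2 change -0.58 ± 0.22, adjusted p just under 0.05) and Id3 (log2 change -0.67 ± 0.23, adjusted p = 0.033), were the 2 that fell, and both lost the call under the replicate block and several other settings, where the count of fallen members ranged from 0 to 5.

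The 20 largest rises under the naming rule came from genes of varied kinds. Scn3b, a sodium channel subunit, lay at 0.13, 0.12 and 0.12 CPM against 7.02, 7.81 and 8.45 CPM (log2 change 5.88 ± 0.28, adjusted p = 9.4e-11). Vipr2, a receptor for vasoactive intestinal peptide, lay at 0.95, 1.42 and 2.25 CPM against 30.97, 25.1 and 25.7 CPM (log2 change 4.14 ± 0.17, adjusted p = 2.2e-11). Kifc3 (chr8:95099828-95202826), a minus-end kinesin, lay at 4.16, 2.9 and 3.29 CPM against 40.3, 39.3 and 46.2 CPM (log2 change 3.6 ± 0.1, adjusted p = 3.5e-13). Slc4a11 (chr2:130684107-130697519), a membrane transporter of the bicarbonate transporter family, lay at 4.29, 4.99 and 3.96 CPM against 49.6, 46.2 and 50.9 CPM (log2 change 3.47 ± 0.079, adjusted p = 3.1e-14). Ano1, a calcium-activated chloride channel, lay at 4.6, 6.04 and 6.21 CPM against 49.5, 53.7 and 56.9 CPM (log2 change 3.24 ± 0.09, adjusted p = 2.6e-13). These 5 genes had TGFb libraries several times above every Ctrl library. Hivep3, a zinc-finger transcription factor, lay at 7.57, 6.41 and 7.06 CPM against 51.3, 52.8 and 61.6 CPM (log2 change 2.98 ± 0.097, adjusted p = 1.4e-12). Gdpd5, a glycerophosphodiester phosphodiesterase, lay at 2.59, 1.91 and 2.56 CPM against 18.6, 19.3 and 16.7 CPM (log2 change 2.95 ± 0.12, adjusted p = 1.5e-11). Mest, an imprinted gene, lay at 0.95, 1.11 and 1.52 CPM against 17.4, 17.8 and 19.2 CPM (log2 change 3.91 ± 0.13, adjusted p = 1.9e-12).

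Genes close to silence before treatment appeared as well. Csdc2, an RNA-binding protein, had 0 counts over the 3 Ctrl libraries and 12, 11 and 11 in TGFb, at least 11.5-fold higher against a floor of 3 counts over the group. Ccdc74a had 1 count in Ctrl and 91 in TGFb, a ratio of 92.6 with a 95% counting interval of 16.2 to 3699. Fibcd1, an acetyl-group receptor, had 2 and 61 counts, a ratio of 31.0 (8.23 to 262). Olr1, a scavenger receptor for oxidised lipoprotein, had 3 and 68, a ratio of 23.1 (7.57 to 115), and Trim67 had 3 and 44, a ratio of 14.9 (4.79 to 75.2). No gene met the reverse rule, and these intervals cover counting error only.

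Receptors and adaptors that trigger NK cells fell more often than they rose. Of 26 activating receptors and adaptors tested, 11 fell, 2 rose and 13 did not pass, with a median of -0.17. That is 42.3% fallen and 7.69% risen, beside 16.4% and 17.9% of all genes tested. Ncr1 (NKp46), the natural cytotoxicity receptor that marks NK cells, lay at 149.8, 147 and 156 CPM in Ctrl and 40.5, 39.8 and 38.3 CPM in TGFb (log2 change -1.93 ± 0.042, adjusted p = 2.1e-14). Slamf7, a receptor of the SLAM family, lay at 245, 228 and 242 CPM against 146, 149 and 154 CPM (log2 change -0.67 ± 0.064, adjusted p = 5.3e-07), and Klrb1c (NK1.1) at 191, 185 and 202 CPM against 158, 158 and 149.8 CPM (log2 change -0.31 ± 0.04, adjusted p = 1.5e-05). Downstream, Lcp2, the adaptor SLP-76, lay at 101, 94.1 and 97.8 CPM against 75.7, 75.9 and 72.6 CPM (log2 change -0.39 ± 0.044, adjusted p = 3.3e-06). Plcg2, the phospholipase it helps recruit, lay at 215, 200.5 and 207 CPM against 165, 161 and 162 CPM (log2 change -0.35 ± 0.036, adjusted p = 1.2e-06). All 5 had separate groups. The 2 that rose were also signalling proteins. Lat, a membrane adaptor, lay at 4.98, 4.93 and 5.23 CPM against 9.05, 8.79 and 6.72 CPM (log2 change 0.7 ± 0.14, adjusted p = 0.00081). Vav1, an exchange factor for Rac, lay at 135, 129 and 132 CPM against 152, 158 and 143 CPM (log2 change 0.19 ± 0.041, adjusted p = 0.0017).

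Inhibitory receptors also fell more often than they rose, while 2 phosphatases that they recruit rose. Of 26 members tested, 10 fell, 3 rose and 13 did not pass, with a median of -0.15. Fallen members made up 38.5% and risen ones 11.5%, beside 16.4% and 17.9% of all genes tested. Ctla4, an inhibitory receptor for CD80 and CD86, lay at 58.1, 53.6 and 55.6 CPM against 24.1, 20.9 and 24.96 CPM (log2 change -1.26 ± 0.076, adjusted p = 2e-09). Havcr2 (TIM-3) lay at 1127, 1093 and 1064 CPM against 769, 786 and 859 CPM (log2 change -0.44 ± 0.043, adjusted p = 5.2e-07). Lilrb4a lay at 271, 280 and 272 CPM against 226, 214 and 196 CPM (log2 change -0.37 ± 0.045, adjusted p = 7.4e-06). Inpp5d (SHIP1), the inositol phosphatase that antagonises PI3-kinase, lay at 137, 129.8 and 136 CPM against 263, 268 and 260.2 CPM (log2 change 0.97 ± 0.036, adjusted p = 7.4e-12). Ptpn6 (SHP-1), the tyrosine phosphatase that binds inhibitory tails, lay at 52.9, 53.7 and 54.3 CPM against 89.9, 96.5 and 83.5 CPM (log2 change 0.75 ± 0.051, adjusted p = 8.8e-09). Klrb1b, an inhibitory lectin-like receptor, was the third to rise, at 209, 209.8 and 223 CPM against 308, 295 and 299 CPM (log2 change 0.49 ± 0.037, adjusted p = 3.3e-08). Dok2, an adaptor that dampens tyrosine kinase signals, was among the 20 largest falls under the naming rule, at 80.8, 82.3 and 82.03 CPM against 27.8, 29.2 and 35.1 CPM (log2 change -1.42 ± 0.066, adjusted p = 8.9e-11). Reads of the lectin-like and granzyme families can be split between near-identical copies, so values of single members are uncertain.

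Genes of the cytotoxic granule moved in both directions, with lower granzyme B and perforin. Of 26 granule and exocytosis genes tested, 10 fell, 5 rose and 11 did not pass, with a median of -0.06. The shares were 38.5% fallen and 19.2% risen, beside 16.4% and 17.9% of all genes tested. Gzmb (granzyme B) lay at 8689, 8113 and 8032 CPM against 5517, 5376 and 5972 CPM (log2 change -0.56 ± 0.046, adjusted p = 8.3e-08). Prf1 (perforin) lay at 6423, 6199 and 6109.7 CPM against 4596, 4718 and 5309.9 CPM (log2 change -0.36 ± 0.048, adjusted p = 2.2e-05). Gzme lay at 6983, 7046 and 6411 CPM against 4564, 4898 and 5524 CPM (log2 change -0.45 ± 0.058, adjusted p = 1.4e-05). In CPM these were the 3 largest falls of all genes. Ctsc, the peptidase that activates granzymes, lay at 343, 336 and 349 CPM against 274, 284 and 259 CPM (log2 change -0.33 ± 0.041, adjusted p = 8.6e-06). Serpins that shield the cell from its own granzymes fell too. Serpinb9, which inhibits granzyme B, lay at 940.4, 951 and 896 CPM against 408, 417 and 436 CPM (log2 change -1.14 ± 0.04, adjusted p = 3.7e-12). Serpinb6b lay at 677, 687 and 679.8 CPM against 405, 392 and 439.8 CPM (log2 change -0.73 ± 0.042, adjusted p = 1.3e-09). Serpinb9b, a close copy whose reads may be shared, lay at 968, 955 and 825 CPM against 469, 466 and 548 CPM (log2 change -0.89 ± 0.084, adjusted p = 4.4e-07). Some components of granule storage and release rose, with Srgn (serglycin) at 1046, 1043 and 996 CPM against 1370.3, 1342 and 1369.9 CPM (log2 change 0.4 ± 0.037, adjusted p = 2.7e-07), Rab27a at 277, 286 and 280.4 CPM against 361, 372 and 386 CPM (log2 change 0.41 ± 0.035, adjusted p = 1.4e-07) and Stxbp2 (Munc18-2) at 125, 125 and 123 CPM against 147, 143 and 144 CPM (log2 change 0.22 ± 0.034, adjusted p = 8.4e-05).

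Secreted mediators moved in both directions. Of 28 cytokines and chemokines tested of 37 listed, 11 rose, 8 fell and 9 did not pass, with a median of 0.20. Risen genes made up 39.3% and fallen ones 28.6%, beside 17.9% and 16.4% of all genes tested. Cxcl10, a ligand of CXCR3, lay at 2.4, 4.93 and 4.26 CPM against 24.9, 26.9 and 21.4 CPM (log2 change 2.66 ± 0.21, adjusted p = 6.5e-08). Flt3l, the growth factor of dendritic cells, lay at 36.8, 39.7 and 33.5 CPM against 77.1, 79.5 and 75.4 CPM (log2 change 1.08 ± 0.055, adjusted p = 2.6e-10). Tnfsf4 (OX40 ligand) lay at 18.5, 21.1 and 23.2 CPM against 40.3, 43.1 and 40.7 CPM (log2 change 0.98 ± 0.069, adjusted p = 1.4e-08). Vegfa lay at 31.5, 28.2 and 29.9 CPM against 43.6, 45.8 and 45.6 CPM (log2 change 0.59 ± 0.065, adjusted p = 2.3e-06). Ltb (lymphotoxin-β) rose too, at 21.3, 19.5 and 22.6 CPM against 46.3, 44.2 and 30.6 CPM, with replicate 3 the lowest TGFb library (log2 change 0.94 ± 0.12, adjusted p = 1.4e-05). Ifng, the hallmark NK cytokine, was low in both groups and lay at 8.2, 7.15 and 7.85 CPM against 5.05, 5.49 and 4.26 CPM (log2 change -0.64 ± 0.13, adjusted p = 0.0011). Ccl4 fell at 17.3, 17.6 and 19.1 CPM against 8.68, 11.6 and 7.99 CPM (log2 change -0.93 ± 0.12, adjusted p = 2.1e-05), Lif at 6.06, 4.62 and 3.83 CPM against 1.79, 1.65 and 2.13 CPM (log2 change -1.38 ± 0.24, adjusted p = 0.00023) and Osm at 20.9, 17.7 and 17.9 CPM against 13.4, 13.5 and 13.2 CPM (log2 change -0.49 ± 0.092, adjusted p = 0.00053). Without Ctrl replicate 3 the number fallen was 5.

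Receptors that guide migration moved in both directions. Of 21 tested of 25 listed, 6 rose, 7 fell and 8 did not pass, with a median of -0.01. Ccr2, the receptor for CCL2, lay at 522, 544 and 534 CPM against 203, 170.3 and 185 CPM (log2 change -1.52 ± 0.058, adjusted p = 9e-12). Gpr65, a proton sensor, lay at 77.1, 79.5 and 75.1 CPM against 46.4, 45.3 and 45.6 CPM (log2 change -0.76 ± 0.048, adjusted p = 4.3e-09). C5ar1, the receptor for complement C5a, lay at 17.3, 18.7 and 20.2 CPM against 8.74, 11.3 and 8.59 CPM (log2 change -0.97 ± 0.11, adjusted p = 3.9e-06). Ccr2 and C5ar1 are also expressed by monocytes, whose markers without Ccr2 summed to 1123, 1299 and 1411 CPM in Ctrl and 1026, 1176 and 849 CPM in TGFb. The part of those cells in these falls was not tested. Gpr183 (EBI2), a receptor for oxysterols, rose from 2.91 ± 0.54 to 14.6 ± 1.92 CPM (SD, n = 3; log2 change 2.33 ± 0.14, adjusted p = 1.5e-09). S1pr4 lay at 40.1, 35.1 and 37.7 CPM against 47.1, 47.6 and 46.3 CPM (log2 change 0.32 ± 0.053, adjusted p = 0.00018). Cxcr4, the receptor for CXCL12, lay at 3.78, 5.05 and 6.15 CPM against 14.04, 14.9 and 5.86 CPM, and its groups overlapped, since TGFb replicate 3 fell within the Ctrl range (log2 change 1.22 ± 0.29, adjusted p = 0.0036). Without that library its change was 1.53.

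Adhesion genes rose more often than they fell. Of 30 integrins and adhesion molecules tested, 13 rose, 5 fell and 12 did not pass. Their median of 0.04 turns negative with upper-quartile factors. The risen share was 43.3% beside 17.9% of all genes, and the fallen share, 16.7%, lay near the 16.4% of all genes. Itga1 (CD49a), a collagen receptor of tissue-resident NK cells, lay at 149, 137 and 146 CPM against 254, 229 and 268 CPM (log2 change 0.8 ± 0.066, adjusted p = 9.5e-08). Itga5, the fibronectin receptor chain, lay at 56.8, 59.8 and 53.2 CPM against 98.8, 98.95 and 98.1 CPM (log2 change 0.8 ± 0.05, adjusted p = 3.3e-09). Cdh1 (E-cadherin) lay at 67.4, 63.4 and 67.1 CPM against 164, 148 and 167 CPM (log2 change 1.28 ± 0.061, adjusted p = 1.1e-10). Itgae (CD103), whose integrin binds E-cadherin, lay at 1.26, 1.05 and 1.52 CPM against 3.88, 4.03 and 2.13 CPM (log2 change 1.39 ± 0.26, adjusted p = 0.00059). Cd44, the hyaluronan receptor, lay at 64.9, 74.01 and 69.1 CPM against 138, 142 and 133 CPM (log2 change 0.99 ± 0.046, adjusted p = 9.7e-11), and the tetraspanin Cd9 at 64.97, 65.3 and 74.8 CPM against 112, 109 and 107 CPM (log2 change 0.68 ± 0.054, adjusted p = 6.7e-08). Itga4, an integrin chain that binds VCAM1, fell at 129.6, 119 and 127 CPM against 85.8, 86.02 and 85.4 CPM (log2 change -0.54 ± 0.05, adjusted p = 3e-07). Pecam1, the one stromal marker that rose, lay at 1111, 1079 and 1091 CPM against 1356, 1312 and 1377 CPM (log2 change 0.3 ± 0.038, adjusted p = 1.1e-05). Of 20 genes of purine signalling and tissue residency tested, 6 rose, 6 fell and 8 did not pass, with a median of -0.12. Nt5e (CD73), which makes adenosine, lay at 4.92, 4.25 and 4.08 CPM against 27.8, 24.3 and 22.97 CPM (log2 change 2.5 ± 0.14, adjusted p = 6e-10). The adenosine receptor Adora2a fell at 38.5, 38.1 and 37.5 CPM against 23.6, 20.3 and 20.7 CPM (log2 change -0.82 ± 0.067, adjusted p = 8.3e-08). Cd69, an antagonist of lymphocyte egress, lay at 93.5, 92.6 and 85.6 CPM against 70, 74.1 and 82.4 CPM (log2 change -0.26 ± 0.062, adjusted p = 0.0034).

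**Figure D3:**
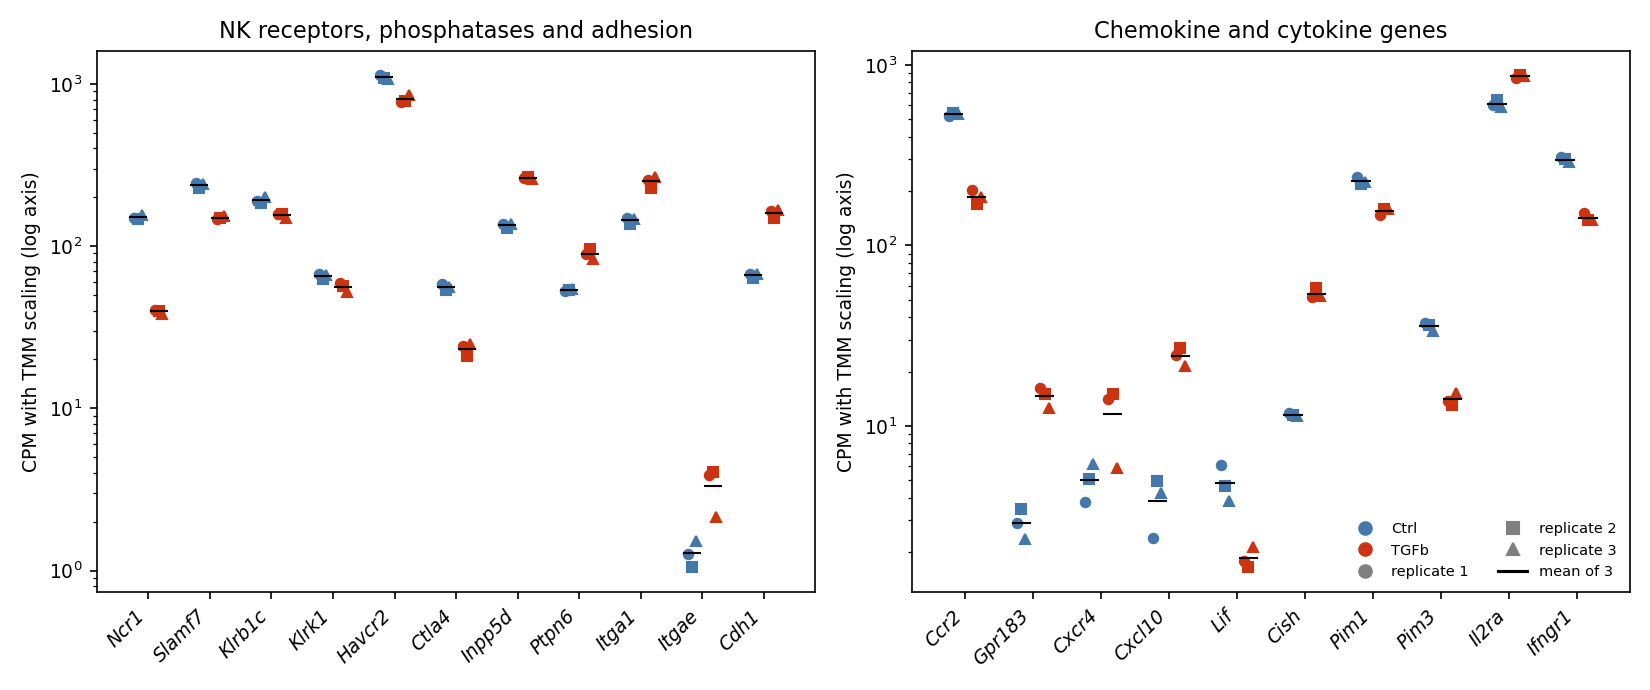
The panels set genes for surface receptors, adhesion molecules, secreted factors and regulators of cytokine signalling side by side, with CPM per library on a log vertical axis, 1 point per library (blue Ctrl, red TGFb, shapes for replicates 1 to 3) and a bar at each group mean. Ncr1, Ctla4, Ccr2 and Ifngr1 lie lower in every TGFb library, Inpp5d, Cdh1 and Cish lie higher, and the TGFb replicate 3 point of Cxcr4 falls among the Ctrl points.

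Components of cytokine receptor signalling fell more often than they rose. Of 38 receptors, kinases, STATs and feedback genes tested, 14 fell, 7 rose and 17 did not pass, with a median of -0.09. The fallen share was 36.8% beside 16.4% of all genes, and the risen share, 18.4%, lay near the 17.9% of all genes. Cish, an inhibitor of IL-15 and IL-2 signalling in NK cells, rose, at 11.9, 11.5 and 11.3 CPM against 51.8, 58.1 and 52.3 CPM (log2 change 2.23 ± 0.071, adjusted p = 1.2e-12). Ifngr1, the ligand-binding chain of the interferon-γ receptor, lay at 308, 301 and 289 CPM against 151, 139 and 138 CPM (log2 change -1.07 ± 0.047, adjusted p = 5e-11). Il4ra lay at 100.4, 108 and 100.1 CPM against 68.6, 64.2 and 68.2 CPM (log2 change -0.62 ± 0.043, adjusted p = 1.2e-08). Pim1 and Pim3, kinases induced by STAT5 that promote survival and growth, lay at 239, 218 and 224 CPM against 147, 160.1 and 158 CPM (log2 change -0.55 ± 0.043, adjusted p = 4.3e-08) and at 36.97, 36.5 and 33.7 CPM against 13.7, 13.1 and 15.3 CPM (log2 change -1.35 ± 0.098, adjusted p = 1.9e-08). Il2ra, the high-affinity IL-2 receptor chain, rose from 609 ± 28.5 to 866 ± 13.8 CPM (SD, n = 3; log2 change 0.51 ± 0.041, adjusted p = 6.7e-08). Il21r lay at 22.3, 24.5 and 22.5 CPM against 31.6, 34.2 and 36.4 CPM (log2 change 0.56 ± 0.066, adjusted p = 5.5e-06), Jak2 at 115, 114 and 116 CPM against 151, 142 and 135 CPM (log2 change 0.31 ± 0.041, adjusted p = 1.4e-05) and Kit at 192, 167 and 171 CPM against 243, 225 and 229 CPM (log2 change 0.39 ± 0.058, adjusted p = 6e-05).

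The master regulators of NK identity did not pass the test. Eomes lay at 556, 542 and 534 CPM against 516, 519.8 and 515 CPM (log2 change -0.07 ± 0.032, adjusted p = 0.095), although it passed as a fall with upper-quartile factors or no scaling. Tbx21 (T-bet) lay at 22.1, 21.4 and 20.1 CPM against 23.8, 21.96 and 23.97 CPM (log2 change 0.13 ± 0.064, adjusted p = 0.14). Of 35 lymphoid transcription factors tested of 39 listed, 8 rose, 10 fell and 17 did not pass, with a median of -0.07. Among falls, Mef2c lay at 41.1, 38.2 and 41.4 CPM against 17.5, 16.8 and 16.6 CPM (log2 change -1.25 ± 0.069, adjusted p = 6.9e-10), Prdm1 (Blimp-1) at 109, 101 and 106 CPM against 46.2, 51.5 and 56.8 CPM (log2 change -1.03 ± 0.061, adjusted p = 1.7e-09) and Ets1 at 211, 205 and 208 CPM against 142, 148 and 138 CPM (log2 change -0.55 ± 0.037, adjusted p = 8.6e-09). Irf4 had the largest fall under the naming rule, at 4.86, 3.57 and 4.81 CPM against 1.11, 1.1 and 0.87 CPM (log2 change -2.09 ± 0.21, adjusted p = 1.1e-06). Cbfb, the partner of RUNX proteins, rose beside Runx3, at 179, 187 and 189 CPM against 256, 249.7 and 243 CPM (log2 change 0.43 ± 0.038, adjusted p = 1.9e-07). Foxo1, which holds NK cells in a resting state, lay at 44.9, 43.9 and 42.96 CPM against 63.4, 68.1 and 71.2 CPM (log2 change 0.62 ± 0.056, adjusted p = 2.7e-07). Foxo3 lay at 23.6, 19.97 and 20.9 CPM against 30.2, 29.8 and 30.3 CPM (log2 change 0.49 ± 0.073, adjusted p = 6.9e-05). Zeb1 and Ikzf3 rose by 0.40 each on the log2 scale.

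Immediate early and bZIP factors split by gene. Of 29 AP-1, EGR and Krüppel-like factors tested, 10 rose, 7 fell and 12 did not pass, with a median of 0.05. The small MAF proteins Maff and Mafk lay at 12.5, 9.61 and 10.3 CPM against 40.7, 44.1 and 50.3 CPM (log2 change 2.06 ± 0.11, adjusted p = 6.5e-10) and at 27.1, 23.4 and 21.97 CPM against 60.1, 62.4 and 64.6 CPM (log2 change 1.37 ± 0.064, adjusted p = 9.5e-11). Egr1 lay at 33.6, 31.7 and 34.1 CPM against 67.5, 69.8 and 80.02 CPM (log2 change 1.13 ± 0.063, adjusted p = 9.4e-10), and Junb and Jund rose by 0.48 ± 0.047 and 0.59 ± 0.057. Ier3 fell at 48.4, 50.2 and 50.02 CPM against 21.7, 25.3 and 22.03 CPM (log2 change -1.11 ± 0.068, adjusted p = 2.4e-09), Klf2 at 7.07, 6.29 and 5.66 CPM against 3.14, 3.23 and 2.86 CPM (log2 change -1.04 ± 0.16, adjusted p = 9.3e-05) and Klf6 at 106, 109.6 and 117 CPM against 88.2, 86.2 and 84.1 CPM (log2 change -0.36 ± 0.043, adjusted p = 5.1e-06). Of 32 interferon factors and interferon-stimulated genes tested, 6 rose, 6 fell and 20 did not pass. Without Ctrl replicate 2 the number fallen was 3. Risen and fallen members each made up 18.8%, near the 17.9% and 16.4% of all genes tested. The guanylate-binding proteins diverged, Gbp3 at 44.3, 48.6 and 47.5 CPM against 90.9, 91.02 and 84.6 CPM (log2 change 0.92 ± 0.047, adjusted p = 2.3e-10) and Gbp4 at 185, 182 and 179 CPM against 101, 98.3 and 89.1 CPM (log2 change -0.92 ± 0.043, adjusted p = 9.7e-11).

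Feedback regulators of ERK and NF-κB rose more often than they fell. Among 29 tested, 13 rose, 6 fell and 10 did not pass, with a median of 0.13. That is 44.8% risen and 20.7% fallen, beside 17.9% and 16.4% of all genes tested. Dusp2, a nuclear phosphatase of MAP kinases, lay at 165, 168 and 153 CPM against 532, 544 and 592 CPM (log2 change 1.78 ± 0.047, adjusted p = 1.4e-13). Dusp4 lay at 2.59, 3.39 and 2.49 CPM against 7.51, 8.66 and 8.79 CPM (log2 change 1.56 ± 0.16, adjusted p = 9.6e-07). Dusp5 and Dusp7 went the other way, at 93.6, 94.2 and 92.2 CPM against 55.2, 52.2 and 66.8 CPM (log2 change -0.69 ± 0.07, adjusted p = 1.1e-06) and at 4.1, 3.14 and 4.75 CPM against 1.48, 2.26 and 1.8 CPM (log2 change -1.11 ± 0.21, adjusted p = 0.00071). Spred1, an inhibitor of RAS to RAF signalling, lay at 50.7, 54.4 and 55.5 CPM against 77.01, 83.7 and 86.5 CPM (log2 change 0.62 ± 0.051, adjusted p = 7.7e-08), whereas Spry2 lay at 111, 99.2 and 98.4 CPM against 71.4, 71.9 and 69.7 CPM (log2 change -0.53 ± 0.05, adjusted p = 3.9e-07). Rgs1 rose beside Rgs16, at 208, 215 and 187 CPM against 385, 359 and 382 CPM (log2 change 0.88 ± 0.061, adjusted p = 9.8e-09). Of 26 Notch, Wnt and Hippo genes tested of 36 listed, 5 rose, 4 fell and 17 did not pass. Both shares, 19.2% risen and 15.4% fallen, lay near the 17.9% and 16.4% of all genes tested. Rbpj, the DNA-binding effector of Notch, lay at 231, 227 and 239 CPM against 486, 471 and 469 CPM (log2 change 1.03 ± 0.037, adjusted p = 4.2e-12). Ctnnb1 (β-catenin) lay at 386, 374 and 393 CPM against 570.5, 550.2 and 551 CPM (log2 change 0.54 ± 0.035, adjusted p = 5.1e-09). Notch3 fell at 3.97, 2.83 and 2.68 CPM against 0.86, 1.1 and 1.53 CPM (log2 change -1.44 ± 0.26, adjusted p = 0.00046). Dll1, a Notch ligand, lay at 2.96, 2.46 and 2.19 CPM against 1.23, 1.1 and 1.07 CPM (log2 change -1.16 ± 0.24, adjusted p = 0.0013). The number fallen was 2 with DESeq2 or without TGFb replicate 2.

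Members of the MYC family moved in opposite directions. MYC drives transcription of ribosome biogenesis and cell growth genes. Myc lay at 60.2, 58.97 and 58.8 CPM in Ctrl and 29, 30.3 and 31.8 CPM in TGFb (log2 change -0.97 ± 0.058, adjusted p = 1.8e-09). Mycn lay at 13.7, 16.3 and 14.9 CPM against 4.99, 6.83 and 5.26 CPM (log2 change -1.39 ± 0.13, adjusted p = 2.9e-07). The third paralog Mycl moved opposite to them, at 1.51, 1.6 and 1.7 CPM against 14.9, 14.6 and 16.98 CPM (log2 change 3.26 ± 0.14, adjusted p = 4.3e-11). Max, the partner of all 3, lay at 113, 108 and 112 CPM against 146, 145 and 146 CPM (log2 change 0.39 ± 0.035, adjusted p = 2.9e-07). Mxd4, which competes for it, lay at 23.2, 20.2 and 22.3 CPM against 28.8, 25.9 and 34.2 CPM (log2 change 0.43 ± 0.092, adjusted p = 0.0016). In the 11 genes of this network tested, 4 rose, 4 fell and 3 did not pass.

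Most ribosome biogenesis genes tested fell. Of 30 factors tested, 25 fell, 1 rose and 4 did not pass, beside 16.4% of all genes that fell, with a median of -0.40. Dkc1 (dyskerin), which guides pseudouridylation of rRNA, lay at 89.9, 85.2 and 85.6 CPM against 46.7, 54.4 and 45.1 CPM (log2 change -0.83 ± 0.059, adjusted p = 1.4e-08). Nop58 and Nop56, core proteins of snoRNPs that methylate rRNA, lay at 88.8, 98.4 and 87.6 CPM against 55.7, 59.4 and 57.6 CPM (log2 change -0.67 ± 0.053, adjusted p = 5.3e-08) and at 90.02, 101 and 90 CPM against 63.3, 67.1 and 61.2 CPM (log2 change -0.55 ± 0.052, adjusted p = 4.4e-07). Gnl3 (nucleostemin) lay at 37.3, 38.8 and 37.1 CPM against 24.6, 22.5 and 24.9 CPM (log2 change -0.65 ± 0.061, adjusted p = 3.9e-07). Nolc1, a nucleolar chaperone, lay at 88.6, 88.6 and 76.5 CPM against 55.3, 56.3 and 57.5 CPM (log2 change -0.58 ± 0.055, adjusted p = 4.2e-07). Noc4l, a factor of the small subunit, was the exception that rose, at 44.2, 47.4 and 44.4 CPM against 68.5, 66.8 and 68.4 CPM (log2 change 0.58 ± 0.045, adjusted p = 4.1e-08).

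Most of the replication and mitosis genes tested fell, beside 16.4% of all genes. Of 30 DNA replication genes tested, 21 fell, 0 rose and 9 did not pass, with a median of -0.34. Mcm6, a subunit of the replicative helicase, lay at 108, 109 and 110.3 CPM against 84.5, 89.4 and 84.7 CPM (log2 change -0.34 ± 0.037, adjusted p = 2.4e-06). Pola1, the catalytic subunit of the priming polymerase, lay at 16.8, 16.1 and 16.4 CPM against 11.6, 11.3 and 11.5 CPM (log2 change -0.51 ± 0.075, adjusted p = 5.5e-05). Of 30 mitotic genes tested, 25 fell, 0 rose and 5 did not pass, with a median of -0.36. Cenpa, the centromeric histone, lay at 51.5, 50.3 and 50.8 CPM against 33.4, 32.9 and 28.4 CPM (log2 change -0.68 ± 0.059, adjusted p = 1.4e-07), Ccna2 (cyclin A2) at 37.2, 35.4 and 38.9 CPM against 26.1, 27.1 and 24.8 CPM (log2 change -0.51 ± 0.065, adjusted p = 1.1e-05) and Kif20a, a kinesin of cytokinesis, at 28.9, 25.1 and 29.9 CPM against 20.1, 19.8 and 16.8 CPM (log2 change -0.56 ± 0.083, adjusted p = 6.2e-05). Of 21 G1 regulators tested, 5 rose, 7 fell and 9 did not pass. Of the D-type cyclins, Ccnd2 and Ccnd3 fell, with log2 changes of -0.42 and -0.41, and Ccnd1, named after its value was seen, did not pass (log2 change -0.24 ± 0.15, adjusted p = 0.24). Cdkn1b (p27), an inhibitor of cyclin-dependent kinases, lay at 56.3, 52.3 and 56.6 CPM against 66.2, 63.1 and 63.6 CPM (log2 change 0.22 ± 0.048, adjusted p = 0.0016). E2f3 lay at 28.3, 28.7 and 31.7 CPM against 50.9, 49.6 and 50.1 CPM (log2 change 0.76 ± 0.055, adjusted p = 1.7e-08).

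**Figure D4:**
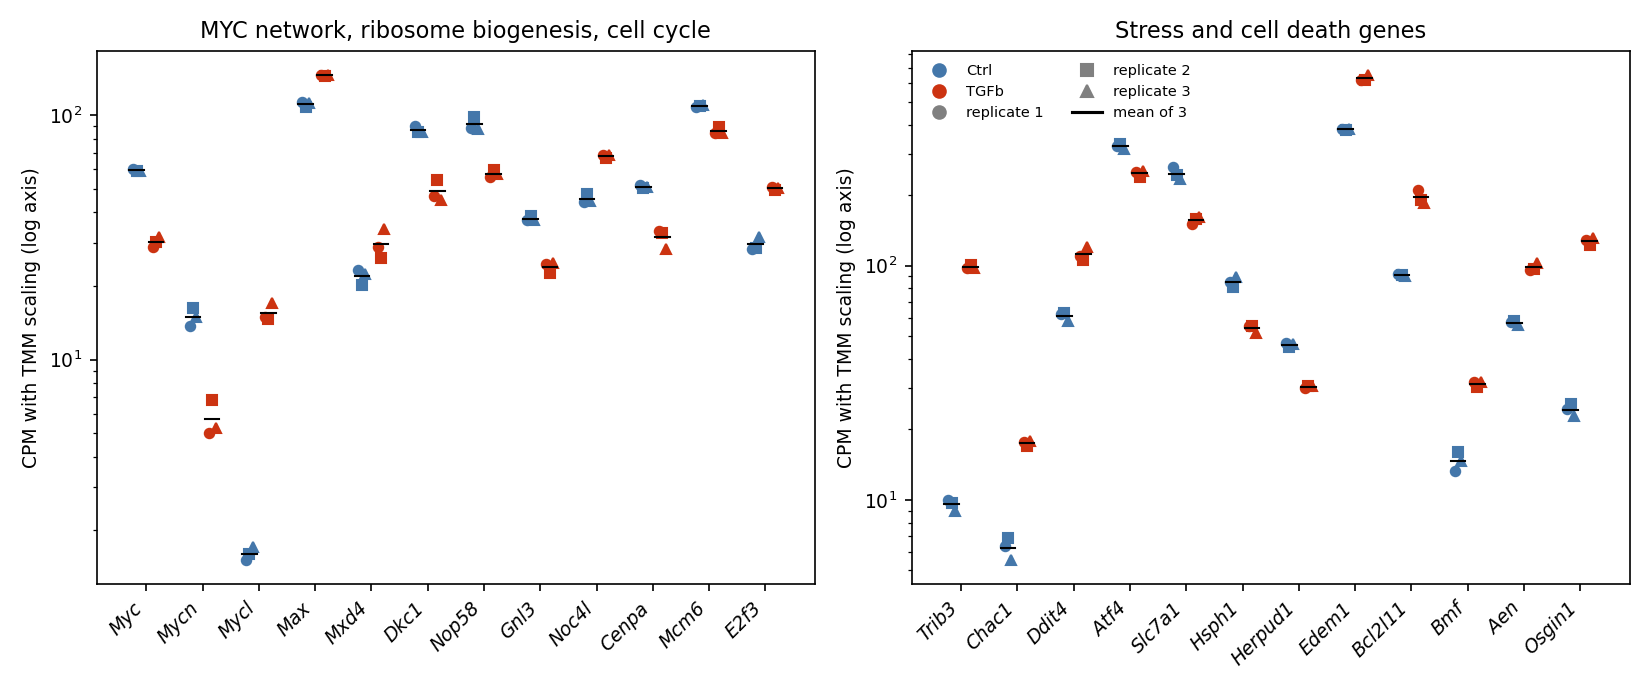
The panels set genes of growth, the cell cycle, stress responses and apoptosis side by side, with CPM per library on a log vertical axis, 1 point per library (blue Ctrl, red TGFb, shapes for replicates 1 to 3) and a bar at each group mean. Myc, Mycn, Dkc1 and Cenpa lie lower in every TGFb library, while Mycl, Trib3, Osgin1 and Bcl2l11 lie higher.

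Genes of the joint list of glycolysis and HIF response fell more often than they rose. Of 30 glycolytic and HIF-responsive genes tested, 16 fell, 2 rose and 12 did not pass, with a median of -0.18. Fallen genes made up 53.3% and risen ones 6.67%, beside 16.4% and 17.9% of all genes tested. Slc2a3 (GLUT3), a glucose transporter, lay at 299, 277 and 281 CPM against 154, 158 and 163 CPM (log2 change -0.85 ± 0.041, adjusted p = 1.2e-10). Slc16a1 (MCT1), which carries lactate, lay at 92.4, 96.3 and 94.7 CPM against 68.7, 68.7 and 71.4 CPM (log2 change -0.44 ± 0.043, adjusted p = 6.7e-07). Hif1a lay at 256, 259 and 260 CPM against 197, 190 and 178 CPM (log2 change -0.46 ± 0.04, adjusted p = 2e-07). Ndrg1, a hypoxia-responsive gene, lay at 62.6, 60.8 and 60 CPM against 25.1, 25.5 and 27.6 CPM (log2 change -1.23 ± 0.065, adjusted p = 4.4e-10). Hk1 and Pfkfb3, which feed and activate the upper pathway, were the 2 that rose, by 0.3 ± 0.039 and 0.51 ± 0.051. Few genes of oxidative phosphorylation passed. Of 30 respiratory chain genes tested, 3 rose, 3 fell and 24 did not pass, with a median of -0.005. The call of each of the 6 was lost under at least 1 alternative.

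Lipid genes moved in both directions. Of 30 sterol and fatty acid genes tested, 7 rose, 8 fell and 15 did not pass, with a median of -0.05, and 13 fell with upper-quartile factors. Hmgcs1, an early enzyme of the mevalonate pathway, lay at 605, 625 and 582 CPM against 382, 392 and 387 CPM (log2 change -0.64 ± 0.04, adjusted p = 3.4e-09). Fasn (fatty acid synthase) lay at 212, 197 and 194 CPM against 139, 156 and 165 CPM (log2 change -0.39 ± 0.057, adjusted p = 4.7e-05). Scap, which escorts SREBP to its activating proteases, lay at 96.8, 95.4 and 96.3 CPM against 190.4, 189 and 214 CPM (log2 change 1.04 ± 0.046, adjusted p = 5.5e-11). Abcg1, a cholesterol exporter, lay at 119, 127 and 132 CPM against 233, 230.4 and 229 CPM (log2 change 0.87 ± 0.041, adjusted p = 8.9e-11). Lss (lanosterol synthase) lay at 71.5, 65.3 and 66.1 CPM against 87.05, 86.3 and 97.1 CPM (log2 change 0.41 ± 0.052, adjusted p = 1.1e-05).

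Genes of the amino acid response moved in both directions. Among 29 tested, 11 rose, 8 fell and 10 did not pass, with a median of 0.12. Atf4 itself, the transcription factor of that response, lay at 323, 331 and 315 CPM against 251, 238 and 254 CPM (log2 change -0.38 ± 0.038, adjusted p = 8.8e-07). Trib3 (chr2:152337425-152344060), a pseudokinase known as an ATF4 target, lay at 10.03, 9.74 and 8.95 CPM in Ctrl and 97.8, 101 and 97.9 CPM in TGFb (log2 change 3.37 ± 0.057, adjusted p = 9.8e-16). Chac1, which degrades glutathione, lay at 6.37, 6.84 and 5.54 CPM against 17.6, 16.96 and 17.9 CPM (log2 change 1.48 ± 0.11, adjusted p = 3.7e-08). Ddit4 (REDD1), an inhibitor of mTORC1, lay at 62.4, 62.7 and 58.1 CPM against 110.1, 105 and 120 CPM (log2 change 0.87 ± 0.052, adjusted p = 1.9e-09). Slc7a1, the cationic amino acid transporter, fell at 263, 244 and 234 CPM against 151, 158 and 161 CPM (log2 change -0.66 ± 0.052, adjusted p = 5.6e-08). Mthfd2, of mitochondrial folate metabolism, lay at 145, 156 and 149 CPM against 114, 110.5 and 120.4 CPM (log2 change -0.38 ± 0.041, adjusted p = 1.7e-06). Slc3a2 (CD98), the shared chain of amino acid transporters, lay at 256, 269 and 244 CPM against 333, 336 and 335 CPM (log2 change 0.38 ± 0.038, adjusted p = 7.4e-07).

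Most heat shock genes tested fell. Of 21 heat shock genes tested, 13 fell, 1 rose and 7 did not pass, with a median of -0.25. The shares were 61.9% fallen and 4.76% risen, beside 16.4% and 17.9% of all genes tested. Hsph1 lay at 85.5, 80.8 and 89.1 CPM against 55.3, 55.3 and 51.4 CPM (log2 change -0.66 ± 0.048, adjusted p = 2.3e-08), Dnajb4 at 148, 156 and 150.1 CPM against 109, 108 and 109 CPM (log2 change -0.48 ± 0.039, adjusted p = 7.9e-08) and Hspd1, the mitochondrial chaperonin, at 194, 192 and 193 CPM against 143, 149 and 155 CPM (log2 change -0.38 ± 0.037, adjusted p = 7e-07). In the endoplasmic reticulum, 12 of 24 genes of the unfolded protein response tested fell, 2 rose and 10 did not pass. That is 50% fallen and 8.33% risen, beside the same shares of all genes. Herpud1, a factor of protein degradation there, lay at 46.9, 44.7 and 46.1 CPM against 29.9, 30.6 and 30.6 CPM (log2 change -0.6 ± 0.051, adjusted p = 1.5e-07). Atf6, a stress sensor, lay at 67.7, 63.1 and 64.6 CPM against 51.7, 53.6 and 48.5 CPM (log2 change -0.35 ± 0.05, adjusted p = 4.4e-05). Edem1, which extracts misfolded glycoproteins, rose at 384, 378 and 384 CPM against 618, 623 and 652 CPM (log2 change 0.72 ± 0.036, adjusted p = 2e-10).

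Apoptosis regulators rose more often than they fell. Of 25 genes tested of the BCL2, caspase and inhibitor-of-apoptosis families and of death receptor signalling, 11 rose, 1 fell and 13 did not pass. The median was 0.17. Risen genes made up 44% and fallen ones 4%, beside 17.9% and 16.4% of all genes tested. Bcl2l11 (BIM), a BH3-only killer protein, lay at 92.3, 91.02 and 90.3 CPM in Ctrl and 211, 191 and 185 CPM in TGFb (log2 change 1.1 ± 0.061, adjusted p = 7.1e-10). Bmf, another, lay at 13.2, 16.1 and 14.6 CPM against 31.8, 30.2 and 31.8 CPM (log2 change 1.09 ± 0.077, adjusted p = 1.3e-08). Bbc3 (PUMA) lay at 27.2, 25.8 and 24.3 CPM against 33.9, 32.5 and 36.4 CPM (log2 change 0.41 ± 0.066, adjusted p = 0.00014). Members that protect from death rose too, by smaller amounts. Bcl2 had a log2 change of 0.17 ± 0.041, Bcl2l1 (BCL-XL) of 0.23 ± 0.044 and Mcl1 of 0.19 ± 0.039, and among the inhibitors of apoptosis Birc2 had one of 0.22 ± 0.055. Bcl2a1b also passed (log2 change 0.2 ± 0.072, adjusted p = 0.046), but it could share reads with its close copies, so its value is uncertain, and it lost the call under 8 alternatives, among them DESeq2 and leaving out Ctrl replicate 1 or 3 or TGFb replicate 1 or 2. These 5 genes were named after their values were seen. Tnfrsf1b (TNFR2), a receptor without a death domain, lay at 279, 266 and 268 CPM against 361, 372 and 377 CPM (log2 change 0.45 ± 0.036, adjusted p = 6e-08). Bid, which links death receptors to mitochondria, was the one that fell, at 67.7, 70.2 and 66.8 CPM against 48.1, 49.7 and 48.4 CPM (log2 change -0.49 ± 0.048, adjusted p = 7.6e-07). Of 30 p53 and NRF2 target genes tested, 10 rose, 1 fell and 19 did not pass. That is 33.3% risen and 3.33% fallen, beside 17.9% and 16.4% of all genes tested. Osgin1, a regulator of cell growth and death under oxidative stress, lay at 24.5, 25.6 and 22.8 CPM against 128, 123 and 131 CPM (log2 change 2.39 ± 0.072, adjusted p = 5.9e-13). Aen, a nuclease induced by p53, lay at 57.7, 57.9 and 55.7 CPM against 95.98, 96.4 and 103 CPM (log2 change 0.79 ± 0.044, adjusted p = 9.8e-10), Xpc, a DNA damage sensor, at 20.4, 18.2 and 18.6 CPM against 36.2, 35.8 and 36.5 CPM (log2 change 0.93 ± 0.065, adjusted p = 1.3e-08) and Trp53inp1 at 105, 112 and 116 CPM against 214, 205 and 190.4 CPM (log2 change 0.87 ± 0.053, adjusted p = 2.1e-09).

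**Figure D5:**
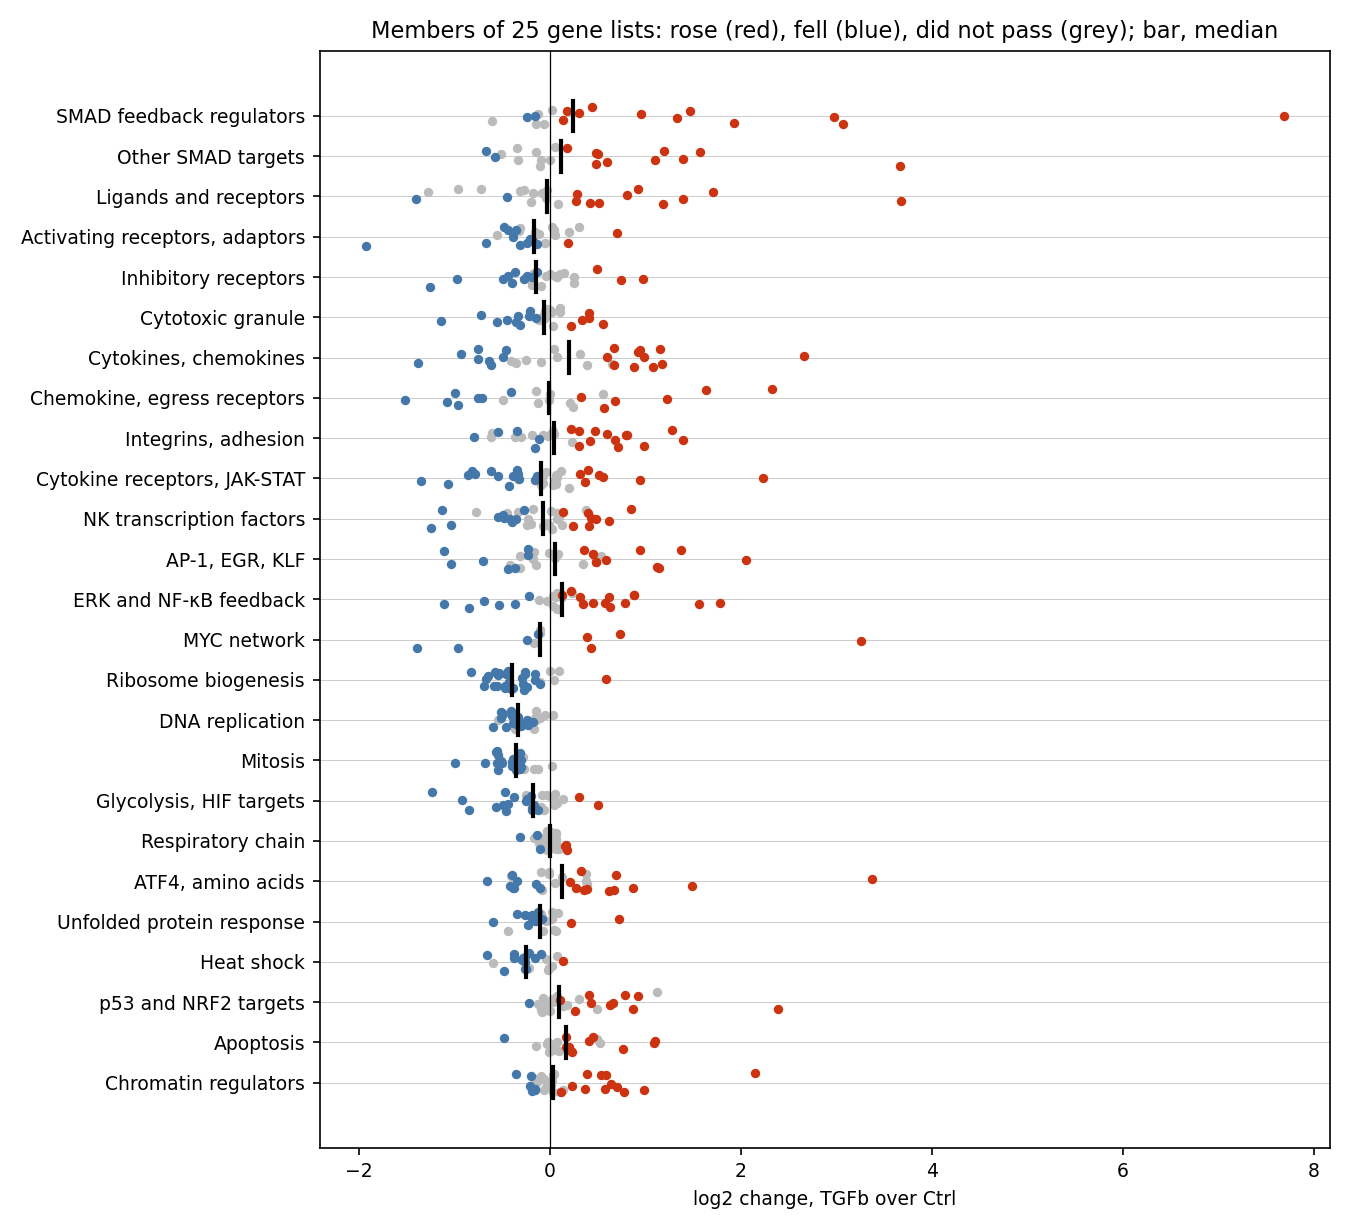
Each row is 1 gene list and each point 1 tested member, placed by its log2 change of TGFb over Ctrl, with red for members that rose, blue for those that fell, grey for those that did not pass and a bar at the median. Ribosome biogenesis, DNA replication and mitosis have nearly all points below 0, with medians of -0.40, -0.34 and -0.36, and the SMAD feedback list has its median at 0.24.

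Chromatin regulators included large single changes. Among 31 tested, 12 rose, 6 fell and 13 did not pass. Their median of 0.04 changed sign with upper-quartile factors or without Ctrl replicate 2. Risen genes made up 38.7% and fallen ones 19.4%, beside 17.9% and 16.4% of all genes tested. Kdm6b (JMJD3, chr11:69398508-69420367), a demethylase of histone H3 lysine 27, lay at 12.6, 12.1 and 11.7 CPM in Ctrl and 53.7, 54.1 and 53.99 CPM in TGFb (log2 change 2.15 ± 0.072, adjusted p = 2e-12). Dnmt3a, a de novo DNA methyltransferase, lay at 74.2, 68.8 and 71.9 CPM against 129.5, 146 and 149 CPM (log2 change 0.98 ± 0.052, adjusted p = 4.7e-10). Arid5a, an RNA-binding protein that stabilises cytokine transcripts, lay at 66.2, 63.1 and 58.5 CPM against 104, 102 and 99.1 CPM (log2 change 0.7 ± 0.059, adjusted p = 1.2e-07), and the deacetylase Hdac7 at 134, 122 and 124 CPM against 92.3, 99.2 and 105 CPM (log2 change -0.36 ± 0.049, adjusted p = 2.6e-05).

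Cytoskeletal genes included the largest rise in CPM. Of 34 cytoskeletal genes tested, 9 rose, 11 fell and 14 did not pass, with a median of -0.02. The shares were 26.5% risen and 32.4% fallen, beside 17.9% and 16.4% of all genes tested. Actb (β-actin) lay at 4854, 4858 and 4912 CPM against 6175, 6413 and 6509 CPM (log2 change 0.38 ± 0.034, adjusted p = 1.9e-07). Myh9, the heavy chain of non-muscle myosin, lay at 1694, 1577 and 1579.7 CPM against 2421, 2398 and 2641 CPM (log2 change 0.62 ± 0.044, adjusted p = 1.6e-08), Rhof, a GTPase of filopodia, at 357, 338 and 314 CPM against 499.7, 513 and 519.5 CPM (log2 change 0.6 ± 0.043, adjusted p = 1.7e-08) and Vim (vimentin) at 223, 257 and 237 CPM against 380.4, 399 and 339 CPM (log2 change 0.64 ± 0.066, adjusted p = 1.1e-06). Tpm4, a tropomyosin, fell at 55.95, 59.7 and 63.5 CPM against 36.8, 38.01 and 33.1 CPM (log2 change -0.73 ± 0.065, adjusted p = 2.3e-07). Fgd4, an exchange factor for Cdc42, lay at 6.62, 6.47 and 6.57 CPM against 2.46, 1.59 and 0.73 CPM, lowest in replicate 3 (log2 change -2.02 ± 0.26, adjusted p = 1.2e-05).

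Among the largest falls outside these lists, Ndnf, a secreted fibronectin-domain protein, lay at 41.2, 37.7 and 33.1 CPM against 9.73, 9.58 and 10.3 CPM (log2 change -1.92 ± 0.091, adjusted p = 1e-10). Filip1 (chr9:79805018-80012851), a filamin-binding protein, lay at 90.6, 82.02 and 82.9 CPM against 27.5, 24.95 and 30.4 CPM (log2 change -1.63 ± 0.064, adjusted p = 1.1e-11). Rasd2, a small GTPase, lay at 82.1, 84.5 and 73.8 CPM against 30.9, 32.3 and 31.5 CPM (log2 change -1.34 ± 0.056, adjusted p = 2.7e-11). Kcnk5, a potassium channel, lay at 18.4, 18.2 and 20.6 CPM against 8.003, 7.32 and 6.66 CPM (log2 change -1.38 ± 0.1, adjusted p = 1.8e-08). Slc40a1 (ferroportin), the iron exporter that macrophages express strongly, lay at 18.04, 23.8 and 25.6 CPM against 6.71, 5.73 and 3.93 CPM (log2 change -2.04 ± 0.19, adjusted p = 3.6e-07). Macrophage markers had a lower sum in TGFb, as given above, but without Ccr2 the groups overlapped. The part of macrophages in the fall of Slc40a1 was not tested. Timp3, an inhibitor of metalloproteinases, lay at 4.23, 4.07 and 5.17 CPM against 2.89, 1.71 and 0.6 CPM (log2 change -1.35 ± 0.34, adjusted p = 0.0053), and without TGFb replicate 3 its change was -0.97. Among the largest falls in CPM, Nabp1, a single-stranded DNA-binding protein, lay at 889, 830.1 and 849.7 CPM against 457, 469 and 549 CPM (log2 change -0.8 ± 0.056, adjusted p = 1.1e-08). Dennd4a, an activator of Rab10, lay at 683, 618 and 647 CPM against 329, 326 and 329 CPM (log2 change -0.99 ± 0.046, adjusted p = 8.3e-11). Mknk2, a kinase of the cap-binding factor eIF4E, was among the largest rises in CPM, at 396, 388 and 394 CPM against 818, 774 and 834 CPM (log2 change 1.04 ± 0.036, adjusted p = 3.3e-12).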

How the data were processed

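RNA sequencing libraries were made from 1 µg of poly-A RNA and read as 100 bp pairs. The authors deposited 1 table of expected counts (each gene's estimated reads, without depth scaling). RSEM, Bowtie2, HISAT2, StringTie, Cufflinks and DESeq2 are listed in the submitters' processing notes, with GRCm38 and mm10 as builds. Their roles and versions are not given in the sources used. Expected counts were rounded. Genes passing filterByExpr (minimum count 10, minimum total 15) were tested with the quasi-likelihood functions of edgeR 4.0.16 in R 4.3.3 after TMM scaling, with all 9 libraries fitted together. P-values were two-sided and adjusted over 12212 genes. SE is the size of a log2 change over the root of its F statistic. The code was tested on simulated data. DESeq2 1.42.0 and limma 3.58.1 served as alternatives. Residual and prior degrees of freedom were 6 and 9.16. The main fit did not pair libraries by replicate number.

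Named genes are the 20 largest rises and falls averaging 1 log2 CPM or more with no overlap, leaving out numbered models and pseudogenes, the 10 largest rises and falls in CPM, up to 6 members of each list with the smallest p and up to 3 in the other direction, genes with at most 3 Ctrl counts and at least 10 per TGFb library, and 19 genes fixed by name. The 32 gene lists and 9 marker lists were drawn up from general knowledge with earlier results of these data known. Some genes that this rule names are not reported here.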

Additional observations from a re-analysis of the deposited data

How the results depend on the processing

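The number of genes changed was 4188 with DESeq2 size factors, 4375 with upper-quartile factors, 4213 with no scaling, 4187 with limma voom, 3455 with DESeq2 and 3975 from the Ctrl and TGFb libraries alone, against 4190. Upper-quartile factors gave 1807 rises and 2568 falls, so that 41.3% of calls were rises against 52.2%. No gene called in both fits changed sign under any of these. With 1 replicate left out at a time the count ran from 3571 (without Ctrl replicate 3) to 3974 (without TGFb replicate 3). Between groups, libraries of the same replicate number correlated at -0.018, 0.025 and -0.113 after centring within each group. With 3 libraries per group these values cannot decide whether replicate numbers pair the libraries. With the replicate block 3942 genes changed, of which 3902 were shared. Named genes kept their call, or the lack of one, in 4364 of the comparisons with alternatives. No named gene called in either fit changed sign, and signs of genes called in neither were not compared. The call was lost in 127 and gained in 6. Depth limits genes of few counts, whose SEs are the widest.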
